A study of Mus musculus with 5 samples.

Results

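Immediate early transcription factors are described here in lungs of 5 C3H mice with ovalbumin-induced airway inflammation (ova mice: sensitised, then challenged with the egg-white allergen), each set against 1 pool of lungs from control C3H mice. C3H is an inbred strain. Amplified RNA was compared on 2-colour arrays, with 1 array for each ova mouse and the same pool on every array, so there is 1 group of 5 ratios and no second one. The 10 genes were chosen by name, with earlier results of these data known. They are Fos, Fosb, Jun, Junb, Jund, Egr1, Ier2, Atf3, Nr4a1 and Myc, each on 1 probe that names no other gene. Probes measured on 4 or 5 arrays were used, which left 6 of the 10 members among 9715 genes tested. The labels give neither the number of control mice and their treatment, nor the days of challenge and of tissue collection, nor the age of the mice. They number the ova mice 1 to 5.

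Immediate early genes are transcribed within minutes of a stimulus, from growth factors, cytokines or stress, without new protein synthesis. Fos, Fosb, Jun, Junb and Jund encode subunits of the dimeric activator AP-1, and Atf3 a related basic leucine zipper protein that pairs with Jun proteins. Egr1 and Nr4a1 encode a zinc finger activator and an orphan nuclear receptor, Myc a helix-loop-helix regulator of growth, and Ier2 a nuclear protein induced with them. Their RNAs are short-lived, and their induction is usually brief.

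Values are the authors' log ratios, taken as log2, after each array was centred on its median. The log base is not stated and nor is the numerator, so a gene is described as lying below 0 or above 0. Retnla (-4.79 ± 0.30), Clca1 (-4.33 ± 0.40), Rnase2a (-4.23 ± 0.60) and Arg1 (-3.48 ± 1.23), genes known to rise in allergic airways and picked here after their values were seen, all lay below 0 (SD, n = 5). If these genes rose in the ova lungs too, a ratio below 0 means more RNA in the ova lung than in the pool. Of all genes tested, 27.5% passed an adjusted p of 0.05 in limma's moderated test of the ratio against 0, 15.2% below 0 and 12.3% above it. Between 11778 and 13320 probes had a value on an array. Ratios were smaller in mouse 1, where their SD across genes was 0.215, than in mice 2 to 5, where it was between 0.336 and 0.400. The number of arrays limits the precision, and the pool stands for 1 control sample whose own spread is not measured.

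Promoter windows of members are shown first, as sequence next to an annotated start, and their function was not tested. Of the 10 members, 7 had a window in RefSeq's table of mouse promoters (GRCm38.p6), which runs from 250 bases before to 50 after an annotated transcript start. Junb and Atf3 are shown because they passed the test, Jund as the close relative of Junb, and Nr4a1 for its repeated motif. Capitals mark TGACG on either strand, the half-site of the cyclic AMP response element that CREB and ATF proteins bind. The windows are chr8:84978699-84978998 (minus strand) for Junb, chr1:191183284-191183583 (minus strand) for Atf3, chr8:70697489-70697788 (plus strand) for Jund and chr15:101266596-101266895 (plus strand) for Nr4a1.
Junb: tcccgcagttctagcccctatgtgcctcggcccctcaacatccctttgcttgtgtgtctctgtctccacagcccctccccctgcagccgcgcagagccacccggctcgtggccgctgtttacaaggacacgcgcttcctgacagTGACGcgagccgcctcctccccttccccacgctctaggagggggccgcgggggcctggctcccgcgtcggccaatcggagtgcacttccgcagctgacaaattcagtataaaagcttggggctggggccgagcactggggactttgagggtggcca
Atf3: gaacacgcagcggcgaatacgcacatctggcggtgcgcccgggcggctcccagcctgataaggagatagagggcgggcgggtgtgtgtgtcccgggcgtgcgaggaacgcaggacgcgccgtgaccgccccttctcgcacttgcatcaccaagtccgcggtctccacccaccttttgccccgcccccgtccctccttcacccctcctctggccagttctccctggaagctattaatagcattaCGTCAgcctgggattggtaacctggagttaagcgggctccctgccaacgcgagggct
Jund: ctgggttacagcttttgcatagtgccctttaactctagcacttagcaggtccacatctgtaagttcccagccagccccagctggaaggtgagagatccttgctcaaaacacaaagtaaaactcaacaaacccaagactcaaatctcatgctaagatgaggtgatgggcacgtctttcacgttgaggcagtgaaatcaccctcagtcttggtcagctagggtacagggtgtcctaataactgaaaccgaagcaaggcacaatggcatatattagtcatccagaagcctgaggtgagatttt
Nr4a1: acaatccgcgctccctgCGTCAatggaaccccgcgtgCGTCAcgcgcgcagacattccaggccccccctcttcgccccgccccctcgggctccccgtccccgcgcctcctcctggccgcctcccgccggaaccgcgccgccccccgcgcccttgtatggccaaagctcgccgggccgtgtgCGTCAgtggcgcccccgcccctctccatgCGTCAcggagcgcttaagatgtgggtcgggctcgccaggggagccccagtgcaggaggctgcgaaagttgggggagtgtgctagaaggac

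The half-site stood 106 bases before the start in the Junb window and 7 bases before it in the Atf3 window. The Nr4a1 window held 4 copies, at 233, 213, 69 and 40 bases before the start, and the Jund window held none. Among all 32851 promoter windows of this length, 20.8% held at least 1 copy. The EGR-type motif GCGNGGGCG, searched on both strands like the others, was found at 60 bases before the start in Nr4a1 and at 50 in Fosb, and in 5.55% of all windows. The motif CCAAT occurred in the windows of Junb, Atf3 and Jun and in 37.4% of all. No member window held TGACGTCA (1.79% of all), TGANTCA (7.81%), TTCNNNGAA (8.3%) or a CArG box (1.63%), which says only that these letters are not in these windows. TGACGTCA overlaps the half-site by construction.

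**Figure D1:**
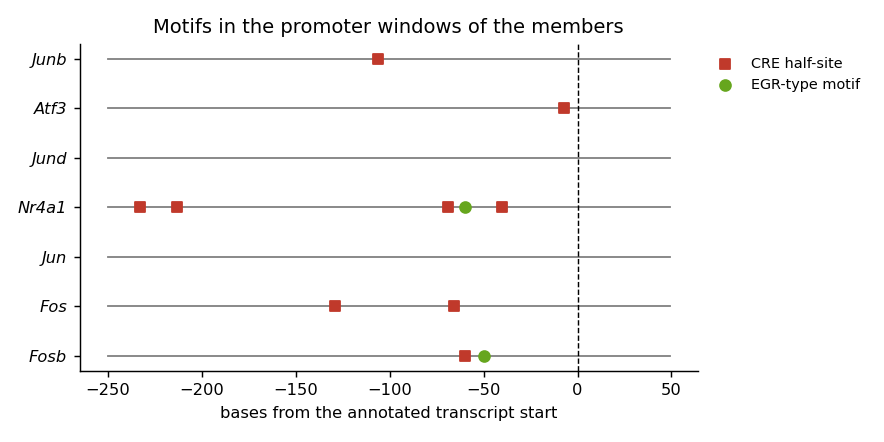
Positions of the CRE half-site (squares) and of the EGR-type motif (circles) in the promoter windows of 7 members, in bases from the annotated transcript start (dashed line). Nr4a1 has 4 half-sites, Fos 2, Junb, Atf3 and Fosb 1 each, and Jund and Jun none.

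Of the 6 measured members, 2 passed the test, against 27.5% of all genes. Both, Junb and Atf3, lay below 0 (15.2% of all genes), and 0 passed above 0 (12.3%). Jund, Nr4a1, Myc and Egr1 had means above 0 that did not pass. The median of the 6 means was 0.15, beside 0.00 over all genes. By their means 2 members lay below 0 and 4 above.

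Junb, an AP-1 subunit that restrains Jun in many cells and drives cytokine genes in T helper 2 cells, had ratios of -0.33, -0.36, -0.51, -0.85 and -0.38 in mice 1 to 5. All 5 lay below 0, and mouse 4 was the lowest. On all arrays together, 21.8% of the 8024 genes with 5 values lay below 0 in every mouse. The mean was -0.48 ± 0.21 (SD, n = 5; limma adjusted p = 0.00438), a 1.40-fold difference if the log base is 2 and 1.62-fold if it is the natural logarithm. Junb stood between the 2.49th and the 11.6th percentile of the genes on each array, and it passed under each of the 15 alternatives run.

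Atf3, a stress-induced repressor that limits inflammatory genes in macrophages and airway cells, gave 0.06, -0.19, -0.56, -1.04 and -0.50 in mice 1 to 5. Mouse 1 lay just above 0 and the other four below, with mouse 4 again the lowest. The mean was -0.44 ± 0.42 (SD, n = 5; limma adjusted p = 0.0471), at the edge of the threshold. The call was lost without mouse 2 (-0.51, limma adjusted p = 0.0646), mouse 3 (-0.42, adjusted p = 0.137), mouse 4 (-0.30, adjusted p = 0.0946) or mouse 5 (-0.43, adjusted p = 0.131). Its place among the genes of an array ran from the 1.54th percentile in mouse 4 to the 69.9th in mouse 1.

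Jund, the AP-1 subunit that many resting cells express steadily, had ratios of 0.04, 0.07, 0.22, 0.11 and 0.12 in mice 1 to 5. All 5 lay above 0 and close together, as did 19.3% of genes with 5 values. The mean was 0.11 ± 0.07 (SD, n = 5; limma adjusted p = 0.106), with a 95% interval from 0.01 to 0.22 that is not adjusted for the number of genes. The SD of Jund was the smallest of the 6 members.

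**Figure D2:**
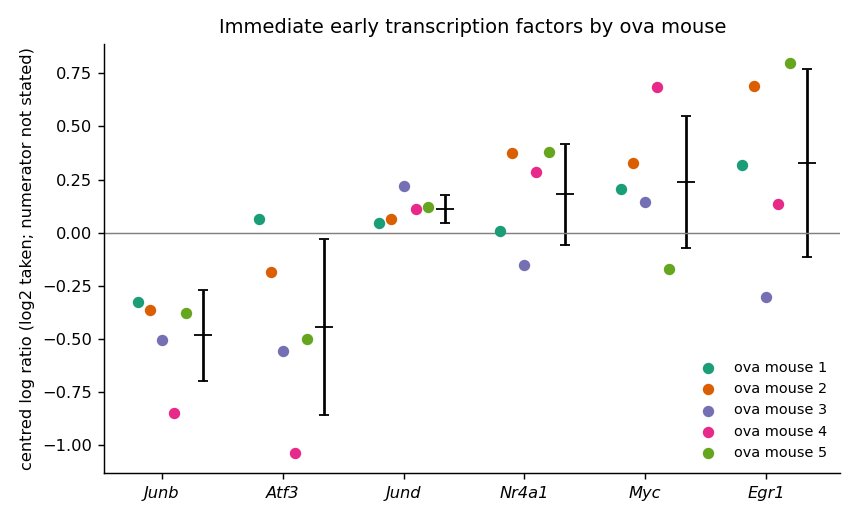
Centred log ratio of each measured member (vertical axis) in the 5 ova mice (coloured points), with the mean and SD over mice in black, ordered by the mean. All Junb points lie below 0 and all Jund points above it, while Egr1 runs from -0.31 in mouse 3 to 0.80 in mouse 5.

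Egr1, a zinc finger activator induced by growth factor and stress signalling, varied most: its ratios were 0.32, 0.69, -0.31, 0.14 and 0.80 in mice 1 to 5. Mice 2 and 5 were high and mouse 3 was the only one below 0. The mean of 0.33 ± 0.44 did not pass (SD, n = 5; limma adjusted p = 0.137; 95% interval -0.01 to 0.67). Without mouse 3 it did, at 0.49 (limma adjusted p = 0.0355). On its own array Egr1 stood at the 97.4th percentile in mouse 1, the 98th in mouse 2, the 98.9th in mouse 5 and the 73.4th in mouse 4, but at the 12th in mouse 3.

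Nr4a1, an orphan nuclear receptor induced in activated lymphocytes and in macrophages, gave 0.01, 0.38, -0.15, 0.29 and 0.38 in mice 1 to 5. As for Egr1, mouse 3 was the lowest and mice 2 and 5 the highest. The mean was 0.18 ± 0.24 (SD, n = 5; limma adjusted p = 0.159; 95% interval -0.02 to 0.38). With 5 mice no correlation between the members was computed.

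Myc, a regulator of growth and ribosome production, had ratios of 0.20, 0.33, 0.15, 0.68 and -0.17 in mice 1 to 5. Mouse 4 was the highest, which it was for none of the other 5 members, and mouse 5 the only one below 0. The mean was 0.24 ± 0.31 (SD, n = 5; limma adjusted p = 0.135; 95% interval -0.01 to 0.48). Its place ranged from the 25.8th percentile in mouse 5 to the 98.5th in mouse 4.

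**Figure D3:**
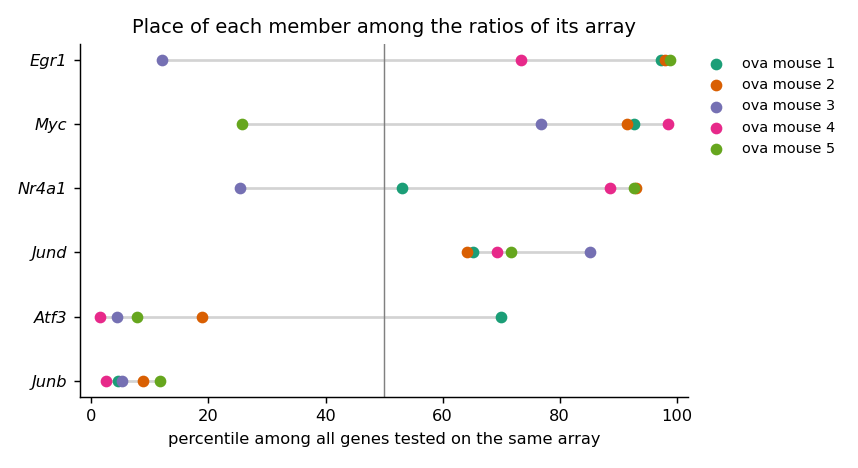
Percentile of each measured member among all genes tested on the same array (horizontal axis), 1 point per ova mouse, with a grey line from the lowest to the highest. Junb stays below the 12th percentile on every array and Jund between percentiles 64.2 and 85.2, while Egr1, Atf3, Myc and Nr4a1 cross most of the range.

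The other 4 members had too few values. Fos, Fosb and Ier2 had no value on any array, like 2247 of the 17280 probes. Jun had 1 value, 0.31 in mouse 4. The brightness of the spots was not available here, so nothing can be said of the level of these genes in either lung.

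In the order of the means the members ran Junb, Atf3, Jund, Nr4a1, Myc, Egr1. Of the 15 pairs, compared by their difference within each array, Junb was lower than Jund, Nr4a1, Myc and Egr1 in 5 of 5 mice. The ratio of Junb was exceeded by that of Jund by 0.60 ± 0.24 and by that of Egr1 by 0.81 ± 0.39 (SD, n = 5). The ratio of Atf3 was exceeded by that of Myc by 0.68 ± 0.62 and by that of Egr1 by 0.77 ± 0.50, also in 5 of 5 mice. Each of these 6 pairs gave an exact two-sided sign-flip permutation p = 0.0625, the smallest that 5 arrays allow, and 0.156 after adjustment over the 15 pairs. Neighbours in the order other than Atf3 and Jund differed by 0.04 to 0.09, less than the SD of their differences. Jund exceeded Atf3 by 0.56 ± 0.45, in 4 of 5 mice (exact permutation p = 0.125, adjusted p = 0.234).

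**Figure D4:**
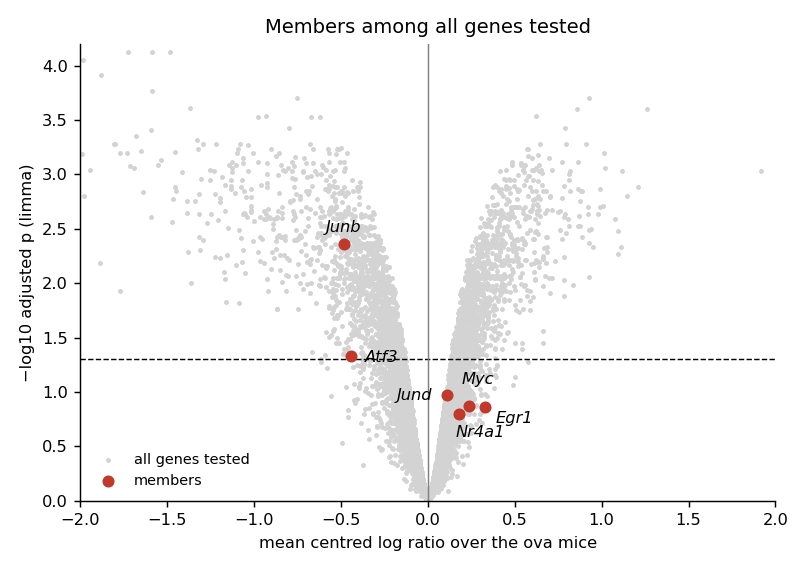
Mean centred log ratio over the 5 ova mice (horizontal axis) against -log10 of limma's adjusted p (vertical axis) for all genes tested (grey) and the 6 measured members (red), with the threshold as a dashed line. The axes leave out 19 genes; Junb lies well above the line, Atf3 on it and the other four members below it.

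Some probes with nearby numbers moved together. Over probes naming different genes, Pearson's r between mean ratios was 0.115 to 0.144 at number distances of 6, 18 and 24, and -0.02 to 0.03 at the other distances up to 30. Distances 6, 18 and 24 are those of highest r in these same data, so their contrast with the others is a description only. For each member, only the probe at these distances with the mean furthest from 0 is named. It was Ly86 (-1.77) for Atf3, Myl4 (0.78) for Nr4a1, Jmjd8 (0.61) for Egr1 and Wbp1 (0.13) for Jund, each on the member's side. For Junb and Myc this probe lay on the opposite side, Dpp4 (0.41) for Junb and Col6a1 (-0.45) for Myc. The part of these probes in the members' ratios was not tested.

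The other immediate early genes and feedback regulators were measured next, from a list of 44 of which 32 were tested. This list and the later ones were chosen with earlier results of these data known, so their shares are a description only. Above 0, 10 of the 32 genes passed (31.2%, against 12.3% of all genes), and 2 passed below 0 (6.25%, against 15.2%). Their median was 0.09. Klf2 and Klf4, Krüppel-like factors of quiescent endothelium and epithelium, had means of 1.01 ± 0.39 and 0.91 ± 0.20 (SD, n = 5; limma adjusted p of 0.00195 and 0.000529). Both were above 0 in every mouse, between 0.57 and 1.53. In the same lungs 3 of 4 tested endothelial markers passed above 0, with means from 0.20 to 0.67 over the 4. A difference in the number of cells and a difference in RNA per cell cannot be told apart in whole lung. The part of either in the ratios of Klf2 and Klf4 was not tested. Dusp1 (0.72 ± 0.43), Dusp4 (0.33 ± 0.20) and Dusp6 (0.43 ± 0.16), phosphatases that switch off MAP kinases, also passed above 0, as did Nab2 (0.18 ± 0.08), the corepressor of Egr proteins, and Zfp36 (0.29 ± 0.17), which destabilises cytokine RNAs. Dusp2 (-0.05) and Nab1 (0.06), their relatives on the list, did not pass. The Dusp and Nab genes, Zfp36, Per1 (0.34) and Ccn2 (0.33), of which the last pair passed above 0, were named after their values were seen. Below 0 were Btg1 (-0.39 ± 0.14), an antiproliferative regulator, and Nr4a3 (-0.29 ± 0.20), a close relative of Nr4a1. Nr4a3 and Nr4a1 thus had means on opposite sides, and the difference was not tested. Nr4a3 lost its call without mouse 3, 4 or 5, with adjusted p-values up to 0.0857 in limma. Fosl2 (-0.03), the only other Fos relative tested, and Egr3 (-0.11) did not pass.

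Of 15 tested genes for other basic leucine zipper proteins, not all of them partners of AP-1, 4 passed above 0 (26.7%, against 12.3% of all genes). Below 0, 2 passed (13.3%, against 15.2%), and the median was -0.03. Crem, a cyclic AMP-responsive modulator that also has repressor forms, had 0.36, 0.64, 0.82, 1.03 and 0.57 in mice 1 to 5, above 0 in each (0.68 ± 0.26; limma adjusted p = 0.00214). Jdp2, a Jun-binding repressor of AP-1, had 0.05 in mouse 1, 0.85 in mouse 2 and values of 0.60 or more in mice 3 to 5 (0.59 ± 0.32; limma adjusted p = 0.00659). Atf4, the activator of the integrated stress response, had 0.23 ± 0.08. On the other side lay Batf, an AP-1 partner needed by T helper cells, at -0.24 ± 0.10 (n = 4), and Atf6, a sensor of endoplasmic reticulum stress, at -0.29 ± 0.23 (n = 5). Both lost their calls when single mice were left out, with limma adjusted p-values up to 0.0829 for Batf (without mouse 1, 3 or 5) and 0.119 for Atf6 (without mouse 2, 3, 4 or 5). None of the 3 tested T cell markers passed, with means from -0.15 to 0.07.

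Among the kinases and transcription factors that induce immediate early genes, 3 of 17 passed below 0 and 1 above (17.6% and 5.88%, against 15.2% and 12.3% of all genes). Map2k3, the kinase of p38, had -0.19 ± 0.02 and lay between -0.22 and -0.16 in all 5 mice (limma adjusted p = 0.0114). Rps6ka3, a kinase downstream of ERK, had -0.39 ± 0.23, and Elk3, an Ets factor that acts with SRF, -0.36 ± 0.26. Pdgfra, a growth factor receptor of fibroblasts, lay above 0 at 0.35 ± 0.22. Rps6ka3, Elk3 and Pdgfra each lost the call without mouse 3 or mouse 5 and, for Elk3 and Pdgfra, mouse 4, with limma adjusted p-values up to 0.051, 0.0867 and 0.0645.

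**Figure D5:**
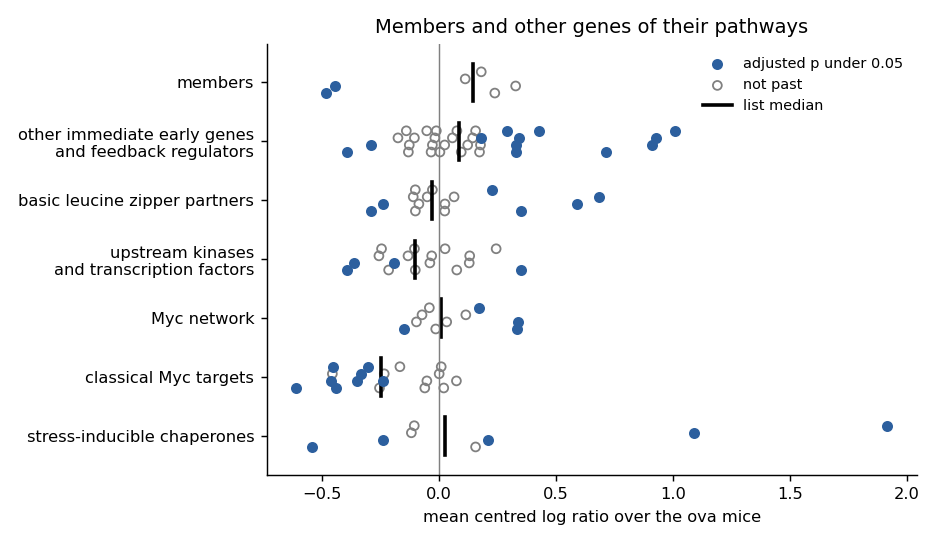
Mean centred log ratio over the 5 ova mice (horizontal axis) of the members and of the other genes in 6 lists, 1 circle per gene tested, filled where limma's adjusted p was under 0.05; black bars mark the medians. Classical Myc targets lie mostly below 0, and the filled circles of the other immediate early genes mostly above it.

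Myc was set beside its network and its targets. Of 10 tested genes of the network, 3 passed above 0 (30%, against 12.3% of all genes) and 1 below (10%, against 15.2%): Mlxip (0.33 ± 0.16), Mycn (0.34 ± 0.21), Trrap (0.17 ± 0.09) and Ruvbl2 (-0.15 ± 0.06). The calls of Mycn and Trrap were lost without mouse 2, 3, 4 or 5 (limma adjusted p up to 0.0636 and 0.117), and that of Ruvbl2 without any 1 of the 5 (up to 0.123). Of the classical targets, 8 of 18 passed below 0 (44.4%, against 15.2% of all genes) and 0 above, with a median of -0.25. Odc1, the first enzyme of polyamine synthesis, had -0.34, -0.41, -0.43, -0.22 and -0.27 in mice 1 to 5, below 0 in each (-0.33 ± 0.09; limma adjusted p = 0.00295). Ncl, the nucleolar protein nucleolin, had -0.45 ± 0.17, and Pcna, the sliding clamp of DNA replication, -0.61 ± 0.28. Myc itself had 0.24 ± 0.31 and did not pass, so its side is not settled. The means of the 8 targets past the threshold lay below 0, and their difference from Myc was not tested. Of 3 tested markers of dividing cells, Cdk1 passed below 0 at -2.14 and Top2a (-0.39) and Mki67 (-0.20) did not; their part in the targets' ratios was not tested.

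Markers of cells that enter the inflamed lung were read beside the members. Of 5 tested macrophage markers, 4 passed below 0, with means from -1.99 to -0.24, and 3 of 3 neutrophil markers did, from -1.13 to -0.50. Of 4 B cell markers 3 passed below 0, with means from -0.55 to -0.18. Of 4 eosinophil markers 2 passed below 0, Ccr3 (-0.39) and Rnase2a (-4.23), and 1, Siglecf (0.30), above. Rnase2a is also among the genes picked above, after their values were seen, to read the side of the ratio. Junb and Atf3 lay on the side of most of these markers, and the part of these cells in their ratios was not tested. That side was not particular to cells that enter the lung. Smooth muscle markers passed below 0 for 2 of 3 tested and fibroblast markers for 2 of 4, with 1 fibroblast marker above. T cell markers passed for 0 of 3. Of 8 tested lung markers, 6 passed above 0 and 1 below. A ratio gives no level, so that the labelled tissue can be checked only by these genes having values. Adipoq, the 1 fat marker tested (1.11 ± 0.56), and Myl7, a heart muscle marker (0.68 ± 0.31), passed above 0 (SD, n = 5). Myh6, the other heart muscle marker tested (-0.07), did not pass. The part of fat and heart tissue in the members' ratios was not tested. Stress-inducible chaperones, of which 3 of 8 passed above 0 (37.5%, against 12.3% of all genes) and 2 below (25%, against 15.2%), included Hspa8 (1.92 ± 0.62), Hspa1a (1.09 ± 0.58) and Bag3 (0.21 ± 0.08) above 0 and Hsp90aa1 (-0.55 ± 0.21) and Hspd1 (-0.24 ± 0.11) below. Hspa1a stood at 0.14 in mouse 1 and at 0.98 to 1.57 in mice 2 to 5. The call of Bag3 was lost when mouse 5 was left out (limma adjusted p = 0.059), and that of Hspd1 when mouse 2, 3 or 5 was (up to 0.0569).

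The genes whose 5 ratios were closest to those of each member, by Euclidean distance among 8018 other genes with 5 values, were named as a description. For Junb this was Aldh9a1, an aldehyde dehydrogenase (distance 0.17), for Atf3 Sp5, a zinc finger factor (0.26), and for Jund 1810009J06Rik (0.03). For Nr4a1 it was Znrd1 (0.20), for Myc Matn1, a cartilage matrix protein gene (0.25), and for Egr1 Heyl, a Notch target (0.43). Heyl had 0.19, 0.43, -0.20, 0.19 and 0.50 in mice 1 to 5, below 0 in mouse 3 alone. Its likeness to Egr1 is the ground on which it was picked. The distance was largest for Egr1, the most variable member, and smallest for Jund, the least variable.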

How the data were processed

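Gene expression was measured on 2-colour arrays in lungs of 5 ova mice, each against 1 control pool. The authors deposited 1 log value per probe and array, taken here as log2. With the background correction, normalization, dyes and scanner not given in the sources used here, spot quality and dye effects could not be checked. A base of 10 was set aside because the largest size, 5.168, exceeds the log10 range of a 16-bit scanner, 4.82. Pearson's r between the 10 pairs of arrays was 0.643 to 0.830.

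Gene names came from GEO's platform annotation: of 17280 probes 14722 had 1 symbol, 1 several and 2557 none. Of those with 1 symbol, 14445 had an identifier in the RefSeq table (GRCm38.p6), which changed 0 symbols. Arrays were median-centred, probes with values on at least 4 arrays were averaged per gene, and 9715 genes were tested against 0 with limma 3.58.1 in R 4.3.3 (lmFit, eBayes, two-sided, Benjamini-Hochberg over all genes, threshold 0.05), after a test on simulated data. The alternatives were other centring, filters on blanks, probe averaging and variance models, and each mouse left out (values on at least 3 arrays). From each list the 3 genes of smallest p per side are named, except 1 that is not reported here. Members and lists were chosen with earlier results of these data known.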

Additional observations from a re-analysis of the deposited data

Results flagged for a closer look

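Among the 6 measured members no ova mouse stood apart from the other 4 by Dixon's gap test. Over the 61 genes tested this way, members and part of the other named genes, 2 values did, both in mouse 1, the array with the smallest ratios. Atf4 had 0.09 in mouse 1, while mice 2 to 5 lay between 0.24 and 0.30. Myl4, whose probe number lies 24 from that of Nr4a1, had -0.11 in mouse 1 and 0.86 to 1.25 in mice 2 to 5. Chance alone gives about 1 such value in 20 genes. Some genes named in the text were not among the 61, such as Siglecf, Adipoq, Myl7 and Myh6. Of these, Myh6 had -0.73 in mouse 1 and -0.03 to 0.17 in mice 2 to 5.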

How the results depend on the processing

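Junb kept its side and its call under all 15 alternatives, with means from -0.52 to -0.39 and adjusted p-values up to 0.0235. The means of Jund, Nr4a1 and Myc stayed above 0 and did not pass under any of the 15. Atf3 lost its call with probes measured on at least 3 arrays (-0.44, adjusted p = 0.0515, with 10677 genes tested), where 1 member instead of 2 passed below 0. With 1 mouse left out, Atf3 had means from -0.57 to -0.30, and 1 or 2 members passed below 0. Egr1 ranged from 0.21 to 0.49 with 1 mouse left out and passed without mouse 3, so that 0 or 1 member passed above 0. The count of genes past the threshold in the 6 other lists was 17 below 0, between 10 and 20 with a mouse left out, and 21 above 0, between 14 and 22. Of all genes, 1477 passed below 0 (929 to 1440 with 1 mouse left out) and 1199 above (672 to 1133). Among 180 counts of single lists under the alternatives, 154 stayed within 1.5 times the main count and 26 did not, 25 of them with a mouse left out. The cause of these shifts was not tested. No paired analysis was possible because there is 1 group, whose mice share a single pool. Spot signal over background was not available, so its limit on faint probes is unknown.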
